A study of Bos taurus with 8 samples.

Results

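The 10 genes followed here mark the lining of blood vessels: 2 selectins, 4 cell junction genes and 4 other vascular genes, read in 8 bovine preadipocyte clones. They were picked by name with earlier results of these data in view (*SELP*, *SELE*, *CDH5*, *PECAM1*, *ESAM*, *CLDN5*, *CD93*, *EGFL7*, *NOS3* and *VWF*), so their difference between the groups is described here and was not tested. All 10 were found among the 18871 named genes of the count table, and all 10 passed the minimum of 20 counts over the 8 clones that left 18339 genes. RNA was sequenced from 4 clones of intramuscular fat (IMF1 to IMF4) and 4 of subcutaneous fat (SF1 to SF4), both expanded in the same growth medium. Each clone was grown by limiting dilution from the stromal vascular fraction, the non-adipocyte cells released from fat by collagenase, of adult Angus-cross steers. The donors were all castrated males, and which IMF and SF clones share a steer is not given in the sources used here. The paper selected the clones for fast growth, strong adipogenic potential and fibroblast-like shape, and harvested them while still growing, whereas the deposited design text places adipogenic induction before sequencing. Dilution aimed for at most 1 cell per well, so a single clone is taken to stand for 1 founder cell after expansion in culture. Clonality was not tested in these data. The groups describe chosen clones and not the depots as a whole.

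Endothelial cells hold together through adherens junctions built on VE-cadherin and tight junctions built on claudins, with immunoglobulin-type adhesion molecules such as PECAM-1 and ESAM at the same contacts. Activated endothelium displays P-selectin and E-selectin, on which passing leukocytes roll, and stores P-selectin with von Willebrand factor in granules called Weibel-Palade bodies. In skeletal muscle and in fat, several of these genes serve as markers of vessel endothelium, as distinct from preadipocytes and muscle precursors.

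Named genes took 19654917 to 29308882 counts in an IMF clone and 19979899 to 24868233 in an SF clone (n = 4 each). Levels are given as CPM, counts per 1e+06 counts after TMM scaling, and 3 counts, taken as the smallest level that could be read, corresponded to 0.0981 to 0.165 CPM (counting error only). The IMF clones were closer to each other than the SF clones were. The median absolute log2 ratio between 2 clones was 0.101 to 0.142 over the 6 pairs of IMF clones and 0.165 to 0.264 over the 6 pairs of SF clones. No pair of libraries agreed within sampling noise (chi-square per gene of at least 41.3, on raw totals). This does not by itself show that the clones are independent. Each library was kept as 1 sample because the labels name 8 clones, and *p*-values measure the spread between these clones. Of 8 preadipocyte markers, *PPARG*, the main transcription factor of fat cell formation, was the one called and was lower in IMF, at 1.23 ± 0.244 against 3.13 ± 0.538 CPM (SD, n = 4 each, log2 fold change -1.35, adjusted *p* = 0.00365 with edgeR). *ITGB1* and *ATXN1* also had less in every IMF clone than in any SF clone, and *PDGFRA* had more, all short of the fold threshold given below. *PDGFRB* overlapped between the groups, at 210 ± 11.1 against 236 ± 63.0 CPM, as did *DLK1*, *ZNF423* and *FGF10*. *ATXN1*, *PDGFRA*, *DLK1*, *ZNF423* and *FGF10* are named after their values were seen. The paper's markers *CD34* and *NOCT* are not among the 8. *CD34* stands in the leukocyte adhesion list below and was called higher in IMF, at least 70.8-fold.

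Of the 10 genes, 9 had a higher level in every IMF clone than in any SF clone, and *CLDN5* was the exception. Of the 18339 genes tested, 18.0% were separated in this direction and 14.1% in the opposite one, and because the genes were chosen with this contrast known, nothing is read from the comparison of these shares. Summed over the 9 genes without *CLDN5*, IMF clones reached 349 to 370 CPM, against 2.98 to 4.75 CPM for SF clones. In these bulk libraries, fewer cells of a type and less RNA per cell cannot be told apart.

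**Figure D1:**
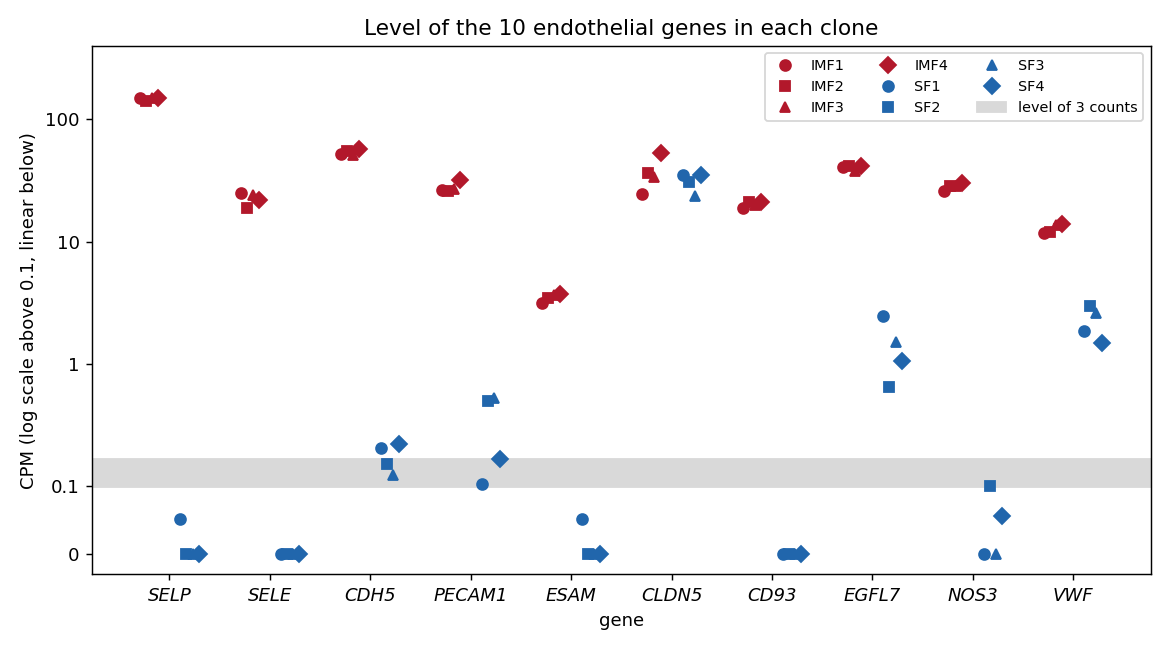
Level of each of the 10 endothelial genes (x axis) in CPM (y axis, logarithmic above 0.1 and linear below) in the 4 IMF clones (red) and the 4 SF clones (blue), with 1 symbol per clone and a grey band at the level of 3 counts (0.0981 to 0.165 CPM). The red and blue points are apart in every gene but *CLDN5*, and 5 genes have every SF clone at or under the grey band.

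*SELP* encodes P-selectin, which is stored in platelets and endothelial cells and moves to the surface on activation. It had 3149, 4329, 3310 and 3126 counts in IMF1 to IMF4, and 1, 0, 0 and 0 counts in SF1 to SF4. Scaled for library size, the IMF clones lay between 142 and 151 CPM (148 ± 4.30, SD, n = 4), the narrowest relative spread of the 10 genes. Measured against the floor of 3 counts per SF clone, the IMF level was at least 1000.5-fold higher. *SELE* encodes E-selectin, which endothelium makes after stimulation by inflammatory cytokines. Counts were 518, 578, 529 and 461 in IMF1 to IMF4, while every SF clone had 0, which puts IMF at least 152-fold higher. Its level was lowest in IMF2 (18.9 CPM) and highest in IMF1 (24.9 CPM). IMF2 was also the lowest IMF clone for *SELP*, and the ratio of *SELP* to *SELE*, per kilobase of gene, stayed between 6.72 and 8.28 in the 4 IMF clones.

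*CDH5* encodes VE-cadherin, the adhesion molecule of the endothelial adherens junction. It had 1086, 1693, 1123 and 1201 counts in IMF and 4, 3, 3 and 4 in the SF clones, or 53.9 ± 2.88 against 0.174 ± 0.0463 CPM (SD, n = 4 each). The groups were far apart, and the SF clones sat close to the floor. The ratio of the summed counts per library was 317, with a 95% interval of 189 to 581 that covers counting error only. *PECAM1* (CD31) encodes an immunoglobulin-type molecule of endothelial contacts that platelets and leukocytes also carry. It had 552, 801, 601 and 669 counts in the IMF clones, with IMF4 the highest at 31.8 CPM. The SF clones had 2, 10, 13 and 3 counts, so that SF2 and SF3 were above the floor and SF1 and SF4 were not. The mean level was 86.2-fold higher in IMF, over an SF mean that includes SF1 and SF4. The ratio of summed counts per library was 81.5 (95% counting interval 56.3 to 123).

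*ESAM* encodes an adhesion molecule of endothelial tight junctions and platelets. It was the junction gene with the fewest reads, 66, 106, 81 and 79 in the IMF clones and 1, 0, 0 and 0 in the SF clones. The IMF level of 3.52 ± 0.264 CPM was at least 23.8-fold higher, and the spread among the IMF clones (coefficient of variation 7.5%) was below what counting error alone gives at such counts (11.1%).

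*CLDN5* encodes claudin-5, the main claudin of endothelial tight junctions. It had 512, 1112, 742 and 1112 counts in IMF1 to IMF4 and 690, 620, 582 and 634 in the SF clones. In CPM, the IMF clones ran from 24.6 in IMF1 to 52.9 in IMF4 and the SF clones from 23.6 to 35.4, so that the groups overlapped. The mean was 1.18 times as high in IMF (36.9 ± 11.8 against 31.2 ± 5.45 CPM, SD, n = 4 each), a difference within the spread of the clones. *CLDN5* also stood apart in how it varied. Its coefficient of variation among the IMF clones was 32.1%, 9.11 times the counting error, and above that of 88.6% of the 13431 genes whose mean count in IMF was 50 or more. All 8 of its counts were even numbers, which held for none of the other 9 genes and for 1.26% of the 11719 tested genes whose mean count was 100 or more. The part of this in the level of *CLDN5* was not tested.

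*CD93* encodes a C-type lectin-like surface receptor of endothelial and myeloid cells. Its 397, 651, 442 and 442 counts in IMF1 to IMF4 came to 19.0 to 21.3 CPM, and with 0 counts in each SF clone IMF was at least 138-fold higher. *EGFL7* encodes a protein that endothelial cells secrete into the matrix around vessels, and an intron of the gene holds the microRNA gene *MIR126*. It had 855, 1271, 838 and 878 counts in IMF and 48, 13, 37 and 19 in the SF clones. All 4 SF clones were above the floor, highest in SF1 (2.46 CPM) and lowest in SF2 (0.651 CPM). The ratio of summed counts per library was 28.6 (95% counting interval 23.8 to 34.7).

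*NOS3* encodes the endothelial nitric oxide synthase, whose product relaxes vessel walls. It had 539, 875, 632 and 632 counts in the IMF clones against 0, 2, 0 and 1 in the SF clones, at least 191-fold higher. The last 2061 bases of its locus overlap *ATG9B* in the annotation, and *ATG9B* had 12 to 32 counts in IMF1 to IMF4 and 10 to 18 in the SF clones. *SELE* overlaps the long non-coding RNA gene *LOC132342460* over 12589 bases, and *PECAM1* overlaps *LOC112442686*, another one, over 8709 bases and *MILR1* over 56 bases. The paper and the labels differ on whether the libraries keep strand, and how reads in these overlaps were assigned was not tested. *VWF* encodes von Willebrand factor, the multimeric protein that catches platelets at injured vessel walls. It had 246, 363, 303 and 293 counts in IMF and 36, 60, 64 and 27 in the SF clones, a mean of 12.8 ± 1.16 against 2.23 ± 0.690 CPM (SD, n = 4 each). This 5.75-fold ratio was the smallest of the 9 separated genes, and every SF clone was above the floor.

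Because longer genes collect more reads, levels of different genes were compared per kilobase of gene length. *SELP* led in the IMF clones with 48.1 ± 1.40 CPM per kilobase (SD, n = 4), above 93.9% of the genes tested. *CLDN5* (29.2 ± 9.38) and *EGFL7* (21.2 ± 0.920) followed, and their ranges overlapped. *CDH5* was next at 9.73 ± 0.521 and overlapped neither neighbour. *SELE* (6.60), *CD93* (6.23), *NOS3* (6.02) and *PECAM1* (5.84) formed a group in which each range overlapped the next. *ESAM* had 1.89 ± 0.142 and *VWF*, a marker of mature endothelium, was last at 1.44 ± 0.130, above 36.4% of the genes tested. In the SF clones the order was another one, led by *CLDN5* at 24.8 ± 4.32 CPM per kilobase, which alone made up 93.9% to 97.2% of the summed level per kilobase of the 10 genes. *EGFL7* (0.738), *VWF* (0.251) and *PECAM1* (0.0677) came next.

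**Figure D2:**
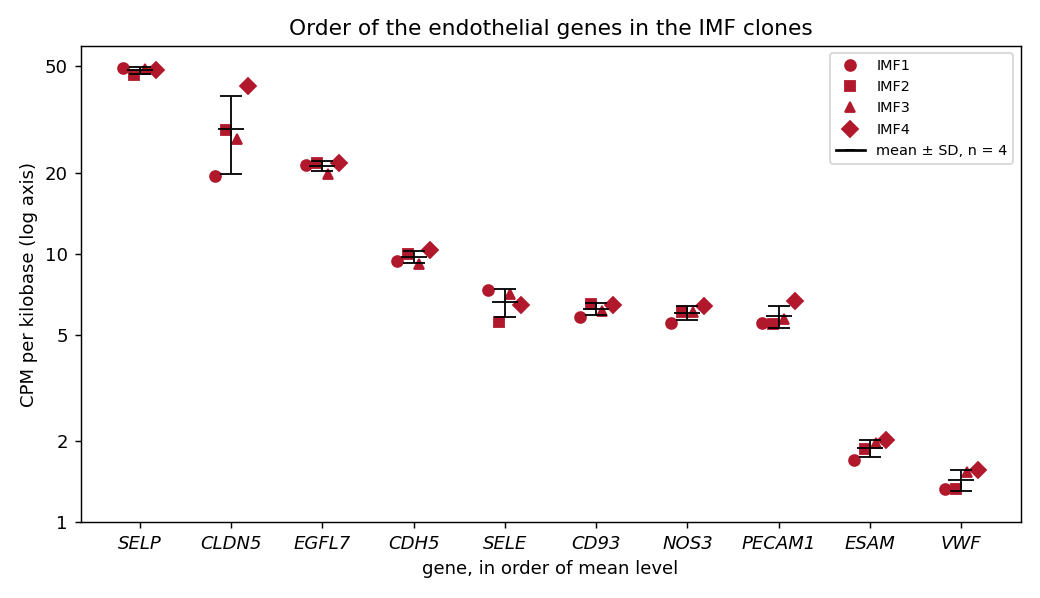
Level per kilobase of gene length (y axis, CPM per kilobase, logarithmic) of the 10 endothelial genes in the 4 IMF clones (symbols), in order of their mean (x axis), with bars for the mean ± SD (n = 4). *SELP* stands at 46.1 to 49.1 in all 4 clones, *SELE*, *CD93*, *NOS3* and *PECAM1* share a range near 6, and *CLDN5* is the gene with the widest spread.

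Spread among the IMF clones was not used to choose the genes. The coefficient of variation was 2.91% for *SELP*, 4.34% for *EGFL7*, 5.04% for *CD93*, 5.35% for *CDH5* and 6.24% for *NOS3*. It was 9.04% for *VWF*, 9.44% for *PECAM1* and 11.8% for *SELE*, where the median of the 13431 genes was 7.48%. Apart from *CLDN5*, these were 0.676 to 2.69 times what counting error alone gives. IMF4 had the highest level of 7 of the 10 genes, but of 3 when libraries were scaled by their total counts alone, so no order of the IMF clones is given.

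**Figure D3:**
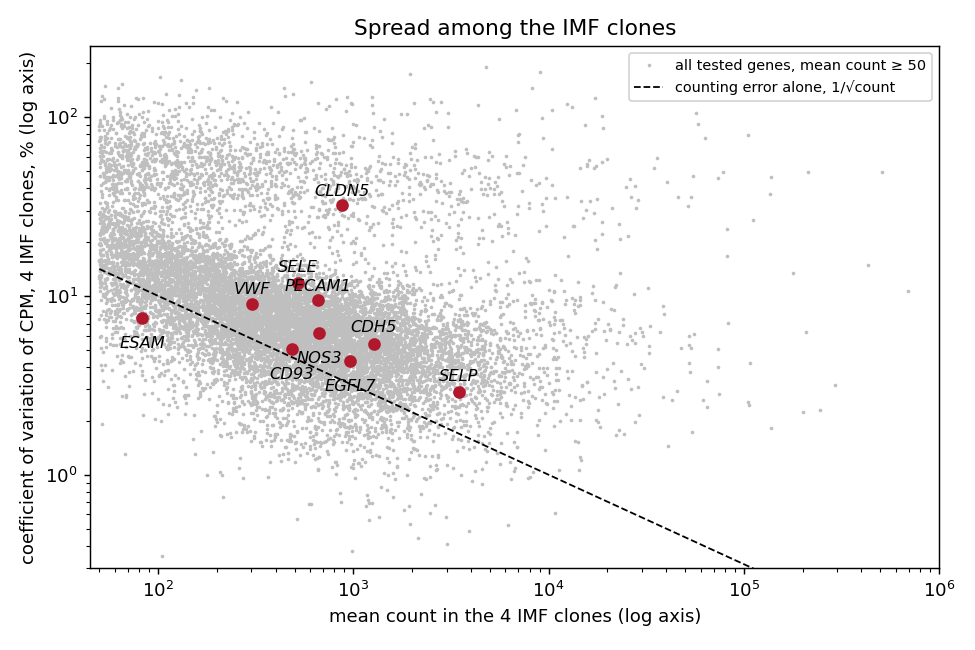
Coefficient of variation of CPM among the 4 IMF clones in percent (y axis, logarithmic) against the mean count in these clones (x axis, logarithmic), for tested genes averaging 50 counts or more (grey) and the 10 endothelial genes (red), with a dashed line for counting error alone. *CLDN5* (32.1%) lies in the sparse upper band of genes, and the other 9 lie between 2.91% and 11.8%.

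The SF clones that held reads of these genes were not the same from gene to gene. *EGFL7* was highest in SF1, *PECAM1* in SF3 (0.528 CPM) and *VWF* in SF2 (3.00 CPM). SF1 held at least 1 count of 7 of the 10 genes, SF2 and SF4 of 6 each, and SF3 of 5. In each SF clone, 4 genes had more than 3 counts.

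Other genes of the same functions were taken from 5 lists and tested with edgeR's quasi-likelihood test, a gene being called when its adjusted *p* was under 0.05 and it changed by 1 or more on the log2 scale. Over all genes tested, 4.78% were called higher and 4.04% lower in IMF. With libraries scaled by total counts alone, the share of calls that were higher was 66.7% in place of 54.2%, while the median log2 change over all genes moved from -0.03 to 0.12. With total counts alone, *ENG* moved from 0.00 to 0.16 and the platelet gene *GP1BA*, not called, changed sign from -0.14 to 0.01. Where the SF clones left in a comparison held 3 counts or fewer, the fitted log2 value depends on the prior count and is no bound.

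Of 29 genes for partners at the endothelial junction, 5 were higher and 2 lower in IMF (median log2 fold change 0.01). *MCAM* (CD146) had 26.5 ± 1.71 CPM in IMF and 104, 3, 3 and 0 counts in the SF clones (log2 fold change 4.26, adjusted *p* = 0.0209). Without SF1 its log2 fold change was 8.04, and without IMF3 its adjusted *p* was 0.052. *PTPRB*, the phosphatase that associates with VE-cadherin, had 8.42 ± 1.16 against 1.2 ± 0.625 CPM (log2 fold change 2.81, adjusted *p* = 0.000677). *RASIP1*, which acts in vessel lumen formation, had a log2 fold change of 1.35 (adjusted *p* = 0.00157). *F11R*, which encodes the junctional molecule JAM-A, and *CLDN11*, another claudin, were also higher (log2 fold change 4.06, and at least 17.0-fold) and are named here after their values were seen. *CDH13* (T-cadherin) was lower in IMF, 155 ± 6.25 against 507 ± 75.7 CPM (SD, n = 4 each, log2 fold change -1.71, adjusted *p* = 3.87e-05), as was the tight junction gene *CGN* (log2 fold change -1.55). *CTNNB1*, the beta-catenin that VE-cadherin binds, was not called. It had a log2 fold change of -0.17 (adjusted *p* = 0.596), which was 0.05 without SF3, and *AMOTL2* one of -0.36 (adjusted *p* = 0.0959).

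Of 15 genes of leukocyte adhesion, 3 were higher and 2 lower in IMF (median log2 fold change -0.25). *CD34* and *PODXL* encode sialomucins that can carry selectin ligands, and both were higher in IMF. *PODXL* had 24.6 ± 1.58 CPM in IMF and 2, 0, 5 and 2 counts in the SF clones (log2 fold change 7.75, adjusted *p* = 5.40e-06). *CD34* was at least 70.8-fold higher. *SELPLG*, the ligand of P-selectin (named after its values were seen), was not called, at 10.7 ± 5.06 against 16 ± 6.11 CPM (SD, n = 4 each). *ALCAM* and *ST3GAL4*, a sialyltransferase that helps build selectin ligands, were lower in IMF (log2 fold changes -1.63 and -1.45, adjusted *p* = 0.00042 and 0.0013). *CD99* (log2 fold change -0.82, adjusted *p* = 0.000656) and *CD248* (-0.88, adjusted *p* = 0.034) fell short of the fold threshold, and *CD248* passed it without SF3 (-1.12).

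Of 20 genes of coagulation and secretory granules, 4 were higher and 1 lower in IMF (median log2 fold change 0.33). *EDN1*, the precursor of the vasoconstrictor endothelin-1, had 30.2 ± 3.20 CPM in IMF and 6, 0, 2 and 0 counts in the SF clones (log2 fold change 8.20, 9.66 without SF1, adjusted *p* = 1.90e-05). *MMRN2*, whose product binds CD93, had 6.03 ± 0.393 CPM in IMF and 24, 2, 1 and 0 counts in the SF clones (log2 fold change 4.14, adjusted *p* = 0.0136). Without SF1 its log2 fold change was 6.82. *TFPI*, an inhibitor of the start of coagulation, had 42 to 81 counts in IMF1 to IMF4 and 0 in SF, at least 16.3-fold higher. *PLAU*, a plasminogen activator, had 82.4 ± 1.52 against 12.8 ± 6.00 CPM (log2 fold change 2.69, adjusted *p* = 0.000611). *PROS1* (protein S, an anticoagulant cofactor) was lower in IMF (log2 fold change -1.99, adjusted *p* = 0.00304). *ANXA2*, whose product helps plasmin form at the cell surface, was not called (log2 fold change 0.42, adjusted *p* = 0.0578).

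Of 22 genes of nitric oxide signalling and vessel tone, 5 were higher and 0 lower in IMF with edgeR (median log2 fold change 0.11), 4 were lower at an unadjusted *p* under 0.05, and DESeq2 called 1 lower. *GUCY1A1* and *GUCY1B1* encode the subunits of the nitric oxide receptor, soluble guanylate cyclase. *GUCY1B1* had 32.3 ± 1.81 CPM in IMF and 206, 17, 42 and 43 counts in the SF clones (log2 fold change 3.07, adjusted *p* = 0.0107). *GUCY1A1* had 72 to 100 counts in IMF and 4, 0, 0 and 0 in the SF clones (log2 fold change 6.04, adjusted *p* = 0.00116). Without SF1, the log2 fold change of *GUCY1B1* was 4.30, and *GUCY1A1* had no count left in SF. *CAV1*, whose product binds and restrains the synthase, had 403 ± 20.8 against 194 ± 39.6 CPM (log2 fold change 1.06, adjusted *p* = 0.00169), and *ARG2*, an arginase that uses the same substrate, had a log2 fold change of 1.09 (adjusted *p* = 0.00387). Both were under the fold threshold without SF1 (0.92 and 0.99), *ARG2* also without SF3 (0.99), so that 3 genes of the list were called without SF1. *EDNRB*, an endothelin receptor, had 13, 43, 39 and 41 counts in IMF1 to IMF4 and 0 in SF, at least 9.73-fold higher. *HSP90AA1* (log2 fold change 0.23, adjusted *p* = 0.151) and *PTGIS*, the prostacyclin synthase (0.85, adjusted *p* = 0.0045), were not called. *PTGIS* passed both thresholds with total counts alone.

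Of 27 other endothelial genes, which were chosen with a like count already known and so give no independent evidence, 21 were higher and 1 was lower in IMF (median log2 fold change 5.22, against -0.03 over all genes tested). Those with the highest levels were *MYCT1* (at least 87.9-fold higher), *TIE1*, an endothelial receptor kinase (at least 85.8-fold), the transcription factor *SOX18* (at least 83.9-fold) and *ACVRL1*, a receptor for BMP9 (log2 fold change 2.68, adjusted *p* = 0.000477). *GATA2* was lower in IMF (-1.94, adjusted *p* = 0.0246), with 2146 counts in SF1 against 359 to 802 in the other SF clones. Its adjusted *p* was 0.058 to 0.0626 when any 1 IMF clone was left out, and 0.0656 with the clone number as a block (log2 fold change -1.58), so that it was not called in these fits. Its log2 fold change was -1.15 without SF1. *FLT4* and *LYVE1* stand in this list and in the lymphatic list below. *ENG* (endoglin) had 324 ± 16.6 against 324 ± 82.8 CPM (SD, n = 4 each), and *RAMP2* a log2 fold change of 0.36 (adjusted *p* = 0.00607).

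**Figure D4:**
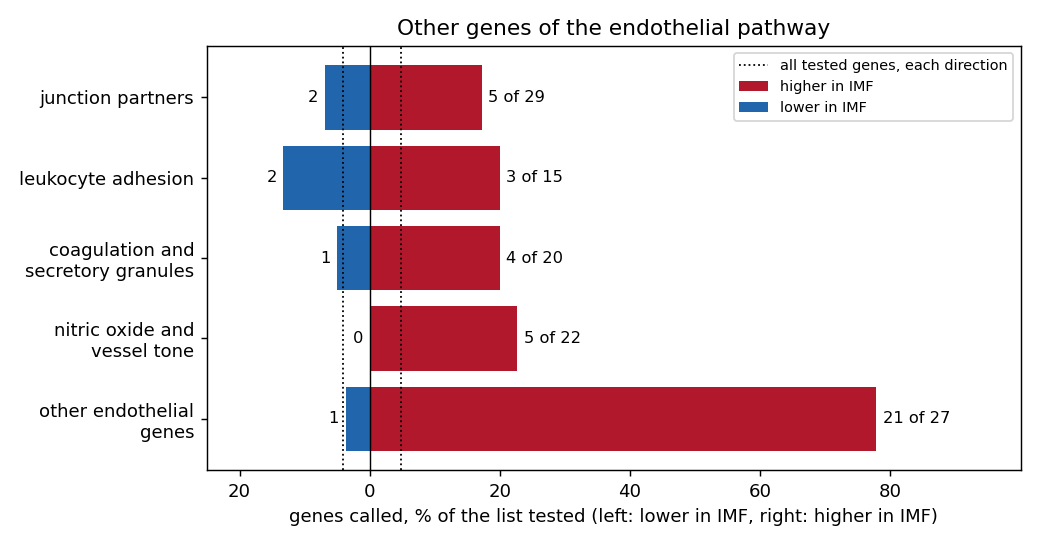
Share of 5 lists of other endothelial pathway genes called higher (red, to the right) and lower (blue, to the left) in the IMF clones, in percent of the genes tested (x axis), with the number of genes beside each bar and dotted lines at the shares over all tested genes (4.78% and 4.04%). The list of other endothelial genes has 21 of 27 higher, and the junction, leukocyte adhesion, coagulation and nitric oxide lists have 3 to 5 genes higher each.

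The 10 genes lie on 9 chromosomes of ARS-UCD2.0, and only the selectins share one. *SELP* (37241576 to 37284908) and *SELE* (37372253 to 37384927) both lie on chromosome 16. The genes on the outer flanks of the pair were not called. *F5*, the coagulation factor V gene 3140 bases from *SELP*, had 25 to 41 counts in IMF and 228, 11, 75 and 203 in the SF clones (log2 fold change -2.27, adjusted *p* = 0.0631). *METTL18*, on the far side of *SELE*, had a log2 fold change of 0.68 (adjusted *p* = 0.0072), short of the fold threshold.

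Taking the 3 nearest tested genes on each side of every member, 55 genes in all, 3 were higher and 3 lower in IMF, 10.9% against 8.82% of all genes tested. *ROBO4*, an endothelial guidance receptor 109598 bases from *ESAM* on chromosome 29, was at least 64.6-fold higher. *LOC616254*, 275528 bases from *PECAM1* on chromosome 19, was higher too (log2 fold change 3.52, adjusted *p* = 0.00221). Lower were *CDH11*, a mesenchymal cadherin 1285691 bases from *CDH5* on chromosome 18 (-2.04), *CMTM3*, 188758 bases from *CDH5* (-1.01), and *NKX2-2*, 1109322 bases from *CD93* on chromosome 13 (-2.74). *CMTM3* fell under the fold threshold without IMF1 (-0.97) or SF2 (-0.76), at the edge of it without IMF4, and under it with total counts alone (-0.88) or with the clone number as a block (-0.96). *THBD*, the thrombomodulin gene 23260 bases from *CD93* and encoding a related lectin-like receptor, was not called (-0.45, adjusted *p* = 0.379, named after its values were seen). The nearest genes to *EGFL7* included *AGPAT2*, 654 bases away, at 12.6 ± 0.748 against 8.30 ± 5.15 CPM (SD, n = 4 each, adjusted *p* = 0.289).

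Each gene's log2 CPM (prior count of 2) was centred over the 8 clones. Its distance from the mean centred profile of the 10 members was taken as a root mean square difference. The members were chosen with the contrast between the groups known, and the size of that gap weighs in this distance. Closeness is therefore no independent evidence of a shared cell type. Of 15369 genes with a mean of at least 1 CPM, the closest were *KIF26A* (0.0790), *ZBTB16* (0.112), *EMCN* (0.123), *FLT4* (0.146) and *KRT6A* (0.149). All had 0 counts in every SF clone, so their distances depend on the prior count and on their level in IMF. No other prior count was tried for this order. *EMCN* (endomucin) and *FLT4* (VEGF receptor 3) are endothelial genes. *KIF26A* encodes a kinesin-like protein, *ZBTB16* a zinc finger transcription factor and *KRT6A* a keratin of epithelia. Among the members, *ESAM* (0.499) and *PECAM1* (0.530) were nearest to the mean profile and *CLDN5* (2.95) the farthest.

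Markers of other cell types were read in the same libraries, and their part in the levels of the endothelial genes was not tested. Of 5 platelet genes, 0 were higher and 1 was lower in IMF with edgeR (1 higher at an unadjusted *p* under 0.05 and with DESeq2), and the list summed to 180 to 190 CPM in IMF and 302 to 601 CPM in SF, mostly from *ITGB3*, which was the gene called and was short of the fold threshold without SF4 (-0.94). The platelet gene *GP9* had 10, 2, 2 and 7 counts in IMF1 to IMF4 and 0, 0, 1 and 0 in the SF clones. Of 9 leukocyte genes, 1 was higher and 1 lower (27.4 to 49.3 CPM in IMF, 56.5 to 98.0 CPM in SF), and 1 to 3 genes were called with 1 clone left out. Of 7 genes of pericytes and smooth muscle, 1 was higher and 4 were lower (2190 to 2450 CPM in IMF, 3250 to 11000 CPM in SF), and 3 or 4 genes were called with 1 clone left out. Of 4 lymphatic endothelial genes, 3 were higher and 0 lower with edgeR and DESeq2 (0 lower also at an unadjusted *p* under 0.05), with 25.5 to 31.4 CPM in IMF and 1.26 to 6.00 CPM in SF. They were *FLT4*, *PROX1*, the lymphatic transcription factor (log2 fold change 5.00, adjusted *p* = 9.48e-05), and *PDPN* (log2 fold change 7.25, and 8.71 without SF2). Of 8 preadipocyte genes, 0 were higher and 1 was lower with edgeR and DESeq2 (1 higher at an unadjusted *p* under 0.05), with 1340 to 1400 CPM in IMF and 1440 to 1940 CPM in SF. Without SF1, 2 preadipocyte genes were called. This list leaves out *CD34* and *NOCT*, which the paper also reads as progenitor or preadipocyte markers. *CD34* was called higher in IMF, at least 70.8-fold. All 8 muscle genes, *MYOD1* and *MYH3* among them, were higher in the same IMF clones (0 lower with edgeR and DESeq2, and 0 lower at an unadjusted *p* under 0.05), with 588 to 699 CPM in IMF and 1.05 to 23.0 CPM in SF. One of the 8, *DES*, was not called with the clone number as a block, without SF3, or when any 1 IMF clone was left out (adjusted *p* of 0.0547 to 0.0769). Over all genes tested, 4.78% were called higher. The paper had already reported many muscle genes as higher in these IMF clones, so the count of 8 gives no independent evidence. Muscle and endothelial genes both had reads in all 4 IMF libraries, and bulk counts do not show whether the same cells held both.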

How the data were processed

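Total RNA of 8 single-cell preadipocyte clones was sequenced in paired-end reads. The authors used Trimmomatic 0.39 for trimming and ARS-UCD2.0 for alignment (HISAT2 in the paper, STAR 2.7.11a in the submitters' processing notes) and deposited raw counts per gene from featureCounts 2.0.2, with gene length in bases. How multi-mapped reads were counted is not given in the sources used here. Columns of group means and of the authors' DESeq2 comparison were not used. A row naming no gene (0.0148% to 0.0209% of counts) was left out. Counts were scaled by TMM and tested with edgeR 4.0.16 in R 4.3.3 over 18339 genes with at least 20 counts in total, Benjamini-Hochberg adjusted. On simulated counts for 4 IMF against 4 SF clones (18177 genes, 200 changed by a log2 value of 2), edgeR recovered 75.5% with 7 false calls and DESeq2 1.42.0 86.0% with 46.

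Symbols, positions and neighbours came from the RefSeq table of ARS-UCD2.0, in which 14297 of the 18339 tested genes, and all 10 members, were found. Clones carry their group and number in the labels. Members, lists and tests were chosen with earlier results of these data known. Named genes were the members, in each list up to 5 called genes with the highest level and the 2 uncalled genes with the highest level, the 5 genes most like the members, and called neighbours, and some genes that met this rule are not reported here. The check on even counts was added after the values were seen. Whether the numbers pair the clones is not known. Deviations of same-numbered clones correlated from -0.0047 to 0.185, and those of other IMF and SF clones from -0.135 to 0.15. Alternatives were RLE factors, total counts alone, DESeq2, no filter, a filter of 10 counts or more in 4 clones or more, a block for the clone number, and each clone left out in turn, with a prior count of 3 for the members' ratios. Figures were drawn with matplotlib 3.10.9.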

Additional observations from a re-analysis of the deposited data

How the results depend on the processing

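The number of genes called between IMF and SF was 1618, from 1332 to 1643 with 1 clone left out, 1996 with DESeq2 and 1489 with the clone number as a replicate block, of which 1356 were among the 1618. In that blocked fit, other endothelial genes had 21 calls in place of 22, and 1 of the 4 IMF clones correlated best with the SF clone of its own number, so the numbers were not read as pairs. The junction, leukocyte adhesion, coagulation, other endothelial and neighbour counts stayed within 1.5 times of their values under all 14 alternatives. The nitric oxide count went from 5 to 3 without SF1, a range of 3 to 5 over the fits that left out 1 clone. Some marker lists moved more with 1 clone left out. Their counts were 0 to 1 for platelets, 1 to 3 for leukocytes, 3 to 4 for pericytes and smooth muscle and 1 to 2 for preadipocytes. With DESeq2, platelets had 2. The lymphatic list stayed at 3 and the muscle list at 7 to 8 under all 14 alternatives. Of 1162 alternative values for the genes named, 1093 kept direction and side of the threshold, and 13 changed sign, all in genes that were not called. These were *ENG* at 0.00 (0.00 with RLE factors and DESeq2, -0.03 with no filter, -0.02 with at least 10 counts in at least 4 clones, and from -0.12 to 0.17 with 1 clone left out), *CTNNB1* (from -0.29 to 0.05 with 1 clone left out), *LYVE1* (from -0.73 to 0.20) and *GP1BA* (0.01 with total counts alone). The cause was not tested. None of 110 alternative values of the members' log2 ratio of group means changed sign, and *CLDN5* ranged from 0.01 to 0.39. With a prior count of 3 in place of 0.5, the log2 ratio of *SELP* was 9.85 in place of 11.95, and without SF1 it was 12.57, since all SF clones held at most 1 count. Depth limits every fold against SF clones with 3 counts or fewer to a lower bound.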

Other observations

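Genes whose 8 counts were all even, as those of *CLDN5* were, numbered 1578 of the 18339 tested (8.60%), and 148 of the 11719 whose mean count was 100 or more. The 148 had a median coefficient of variation of 35.3% among the IMF clones, against 7.48% over the 13431 genes whose mean count in IMF was 50 or more. Relative to the IMF mean, their median level was 1.01 in IMF1, 0.821 in IMF2, 1.01 in IMF3 and 1.03 in IMF4, and *CLDN5* was at 0.666, 0.986, 0.912 and 1.44. What makes such counts was not tested.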
